A study of Mus musculus with 12 samples.

Results

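Fatty acid binding proteins and fatty acid uptake proteins were followed in B16-F10 cells, an established pigmented mouse melanoma line, through every array probe set that the platform annotation assigns to Fabp3, Fabp4, Fabp5, Fabp7, Cd36, Slc27a1 or Slc27a4. These 7 genes, of 18193 single gene symbols on the array, have 15 of the 45037 probe sets that are not controls. Of the 15, 8 were bright enough to be tested and cover Fabp3, Fabp5, Fabp7, Slc27a1 and Slc27a4. The other 7, all probe sets of Fabp4 and Cd36, lay in the dimmest 40% by mean and are flagged as dim. The genes were chosen on the FoxD3 against empty vector contrast of these arrays, in which Fabp3 had been among the largest rises. Values of the 7 genes with FoxD3 against the empty vector are therefore given as a description, with no p of their own, and counts of their calls in that contrast stand only beside the share of calls over all probe sets. Genes outside the 7 were tested in all 3 comparisons. The lists that name them were chosen with earlier results of these data known, so their p-values are not independent of that choice.

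The study compared 3 transfections of B16-F10 cells with 4 arrays each. One group received pMES carrying chicken FoxD3, another received pMES carrying chicken FoxD3-VP16, in which the VP16 activation domain stands in place of the C-terminal repression domain, and the control group received empty pMES. The chick beta-actin promoter drives insert and EGFP in both FoxD3 vectors, and EGFP-positive cells of every group were sorted 24 h after transfection. Each group is thus the sorted, transfected fraction of 1 line. Whether the 4 replicates were grown and transfected separately is not stated, so the p-values rest on a spread between arrays that could be technical alone. In bulk RNA, fewer cells making a transcript and less of it per cell cannot be told apart.

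Long-chain fatty acids enter cells partly with the help of membrane proteins such as CD36 and the fatty acid transport proteins of the Slc27 family, which also couple the acid to coenzyme A. Inside the cell, fatty acid binding proteins, small cytosolic carriers, hold the insoluble acids and deliver them to mitochondria, lipid droplets, membranes or nuclear receptors of the PPAR family. Fabp3 is known as the heart and muscle form, Fabp4 as the fat cell and macrophage form, Fabp5 as the epidermal form and Fabp7 as the brain form of radial glia and of Schwann cell precursors. FABP7 has also been described in human melanoma.

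Values are log2(intensity + 16) after quantile normalization, unless given as deposited intensities, and a change is a difference of group means on that log2 scale. The arrays numbered 1 stood apart: their 18 hybridization control probe sets averaged 14.5 to 14.7, against 11.8 to 13.1 on the other 9 arrays, and their Gapdh 3' minus 5' difference, a sign of RNA quality, was 0.56 to 0.77, against -0.25 to 0.04. Each vector had 1 such array, and results that turn on it are given with and without it. Without all the arrays numbered 1, array medians spanned less than 0.5, and results of that setting were not quantile normalized. All 10 melanocyte and melanoma markers examined were bright enough to be tested. Their summed intensity was 162034 to 335656 with FoxD3, 155410 to 376192 with FoxD3-VP16 and 176879 to 430627 with the empty vector. All 6 adipocyte markers on the array, among them Adipoq and Pparg, and 11 of 12 heart and skeletal muscle markers were dim. The adipocyte sum was 96 to 207 with FoxD3, 61 to 110 with FoxD3-VP16 and 56 to 124 with the empty vector, and the muscle sum was 212 to 258, 183 to 274 and 216 to 289 in the same order.

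Fabp3 was the member that stood highest over its control with FoxD3, and it did not stand higher with FoxD3-VP16. By probe set 1416023_at, the deposited intensities were 870, 914, 1662 and 1629 with FoxD3 (replicates 1 to 4), 5.36, 86.0, 157 and 161 with FoxD3-VP16, and 23.8, 64.6, 230 and 215 with the empty vector. All 4 FoxD3 arrays lay above all 8 others, and those 8 overlapped. On the log2 scale the arrays read 9.90, 9.83, 10.69 and 10.65 with FoxD3, 4.23, 6.74, 7.44 and 7.51 with FoxD3-VP16, and 5.01, 6.47, 7.99 and 7.85 with the empty vector.

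The Fabp3 means were 10.27 ± 0.46 with FoxD3, 6.48 ± 1.54 with FoxD3-VP16 and 6.83 ± 1.39 with the empty vector (SD, n = 4 each). With FoxD3 the level was 10.8-fold that of the empty vector (log2 change 3.44, SE 0.73). The difference was 4.89, 3.36, 2.70 and 2.80 in the array pairs numbered 1 to 4, so it was positive in 4 of 4 and largest in the pair numbered 1. In that pair the empty-vector array read 5.01, below the limit of 5.60 under which a mean was called dim, so the size of its difference depends on the value of 16 added before the logarithm. The FoxD3-VP16 array numbered 1, at 4.23, was below the limit too. Over the alternative settings the change lay between 2.85 and 3.81, and it was 2.85 without the empty-vector array numbered 1.

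A second Fabp3 probe set, 1444844_at was dimmer and moved less. It read 7.27, 6.44, 6.56 and 5.92 with FoxD3, 5.56, 6.0, 6.03 and 5.32 with FoxD3-VP16, and 6.47, 5.77, 6.38 and 5.23 with the empty vector. The groups overlapped on this probe set, and FoxD3 was higher than the empty vector in 4 of 4 pairs (0.80, 0.67, 0.18 and 0.70, mean 0.59, SE 0.37). The 2 probe sets thus pointed the same way with different sizes.

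**Figure D1:**
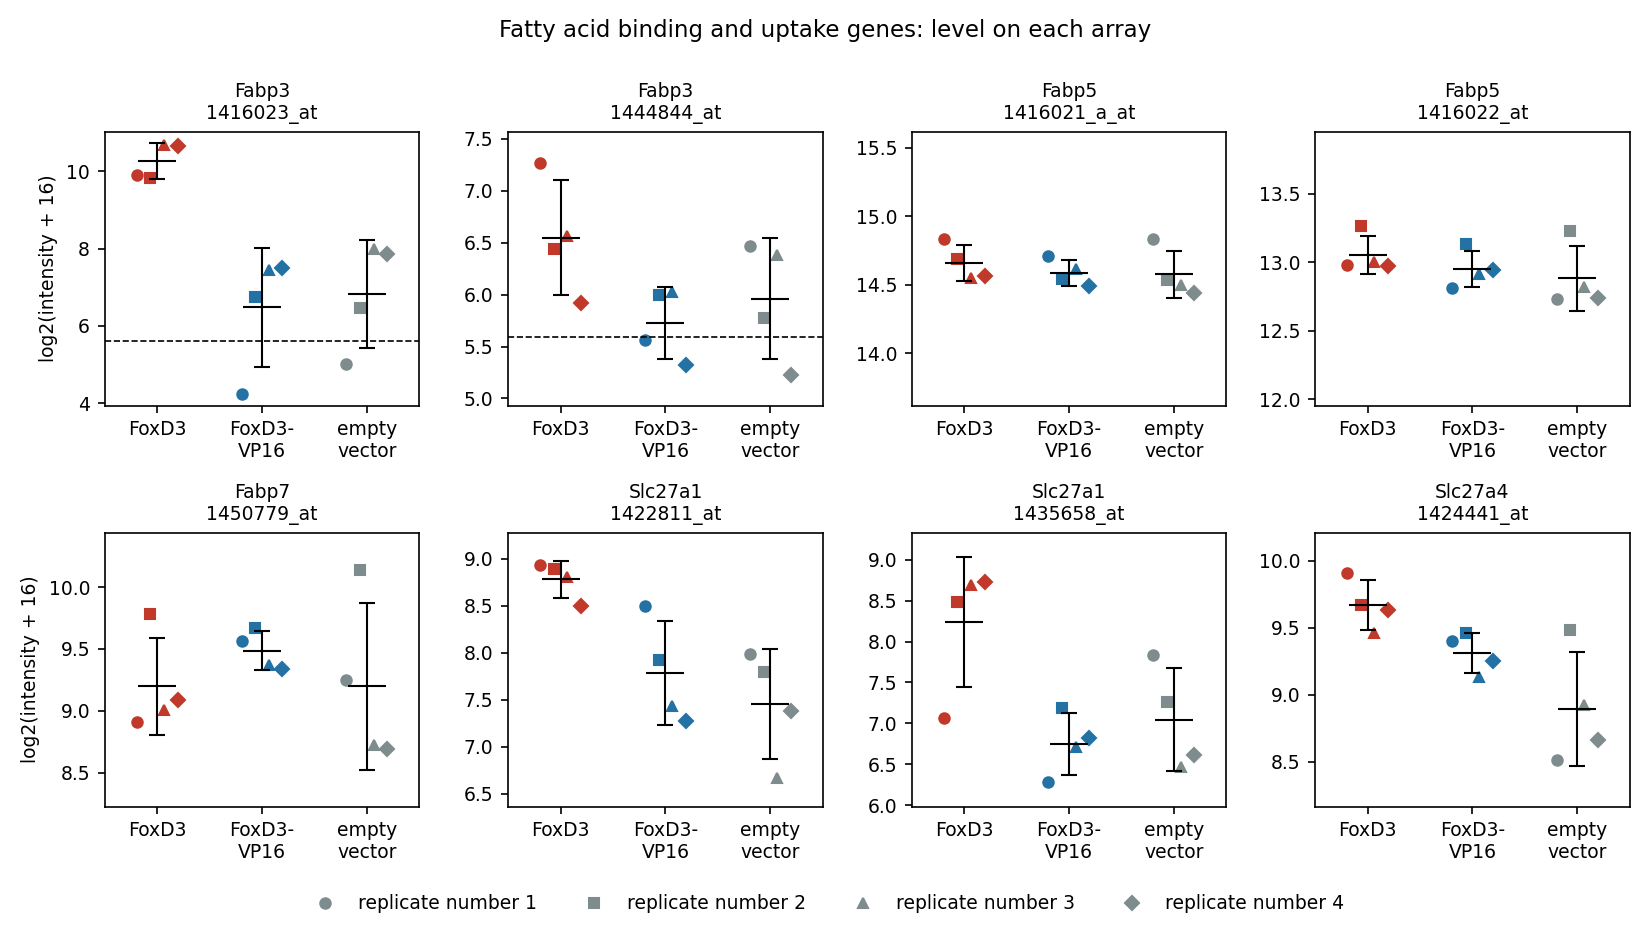
Level of the 8 tested probe sets on each of the 12 arrays, as log2(intensity + 16) after quantile normalization, by vector. Symbols mark the replicate number, bars the mean ± SD of 4 arrays, and the dashed line, where in range, the limit of 5.60 for dim probe sets. Axes differ between panels. The 4 FoxD3 arrays of Fabp3 1416023_at lie between 9.83 and 10.69, above all other arrays, while both Fabp5 panels are flat.

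Both transport proteins were also higher with FoxD3. Slc27a1, or FATP1, is a fatty acid transport protein known from fat and muscle. Its probe set 1422811_at read 8.93, 8.89, 8.81 and 8.50 with FoxD3, 8.50, 7.92, 7.43 and 7.27 with FoxD3-VP16, and 7.99, 7.79, 6.66 and 7.38 with the empty vector. The FoxD3 arrays did not overlap with those of the empty vector, and the FoxD3-VP16 arrays overlapped with both. The change with FoxD3 against the empty vector was 1.33 (SE 0.32), with pair differences of 0.94, 1.10, 2.15 and 1.12.

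Slc27a1 has a second probe set, 1435658_at, on which 1 array stood against the rest. It read 7.06, 8.49, 8.69 and 8.73 with FoxD3, 6.28, 7.19, 6.71 and 6.82 with FoxD3-VP16, and 7.84, 7.26, 6.47 and 6.61 with the empty vector. The FoxD3 array numbered 1 was low and its pair differed by -0.77, while the other 3 pairs differed by 1.23, 2.22 and 2.12. The change was 1.20 (SE 0.41) with all arrays. It was 2.01 without the 3 arrays numbered 1, on values not quantile normalized.

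Slc27a4, or FATP4, a widely expressed transport protein with acyl-CoA synthetase activity, moved less. Its single probe set, 1424441_at, read 9.91, 9.67, 9.46 and 9.63 with FoxD3, 9.40, 9.46, 9.13 and 9.25 with FoxD3-VP16, and 8.51, 9.48, 8.92 and 8.66 with the empty vector. The FoxD3 and empty-vector arrays overlapped only through the empty-vector array numbered 2. FoxD3 was higher in 4 of 4 pairs, by 1.41, 0.20, 0.55 and 0.97 (mean 0.78, SE 0.21). Without the 3 arrays numbered 1, on values not quantile normalized, the change was 0.59.

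Of the 2 binding proteins that the empty-vector cells already showed brightly, Fabp5 differed little and Fabp7 varied between pairs. Fabp5, the epidermal form, read 14.83, 14.69, 14.55 and 14.56 on probe set 1416021_a_at with FoxD3, 14.71, 14.54, 14.61 and 14.49 with FoxD3-VP16, and 14.83, 14.53, 14.50 and 14.44 with the empty vector. On 1416022_at it read 12.98, 13.26, 13.00 and 12.97 with FoxD3, 12.81, 13.13, 12.91 and 12.94 with FoxD3-VP16, and 12.73, 13.23, 12.82 and 12.74 with the empty vector. All groups overlapped on both. The mean of 1416021_a_at stood at percentile 99.7 of all probe sets (1416022_at at 98.2), so close to the upper end of the scale that brighter signal may be compressed there. FoxD3 against the empty vector gave 0.08 (SE 0.12) and 0.17 (SE 0.14).

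Fabp7, the brain form, showed no common direction over the pairs. Probe set 1450779_at read 8.91, 9.78, 9.01 and 9.09 with FoxD3, 9.56, 9.67, 9.37 and 9.34 with FoxD3-VP16, and 9.25, 10.14, 8.72 and 8.69 with the empty vector. The array numbered 2 was the highest in all 3 groups. Against the empty vector, FoxD3 was lower in the pairs numbered 1 and 2 (-0.33 and -0.36) and higher in those numbered 3 and 4 (0.28 and 0.40), and the mean change was -0.00 (SE 0.30).

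Of the 8 tested probe sets, 7 had a change above 0 with FoxD3 against the empty vector, and 2 had FoxD3 arrays that all lay above those of the empty vector, where 4.95% of all 27022 tested probe sets did. An adjusted p under 0.05, the threshold for a call over all probe sets, was reached by 1 of the 8 (Fabp3 1416023_at), where 1.36% of all tested probe sets were called higher and 1.86% in either direction. In the fit with the replicate block 3 were called higher (6.54% of all): Fabp3 1416023_at, Slc27a1 1422811_at and Slc27a4. Since this contrast led to the choice of the genes, nothing is read from these counts.

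Fabp4, the fat cell form, and Cd36, the scavenger receptor that takes up fatty acids and oxidized lipoproteins, were dim with every vector. The 4 Fabp4 probe sets had deposited intensities of 0.458 to 100 and exceeded the limit for dim probe sets in 2 of 48 readings. The brightest was 1425809_at, which read 4.29, 4.8, 5.22 and 5.74 with FoxD3, 6.26, 5.43, 4.38 and 4.93 with FoxD3-VP16, and 4.69, 5.47, 4.69 and 5.56 with the empty vector. The other 3 read 4.11 to 5.36 (1424155_at), 4.07 to 5.18 (1451263_a_at) and 4.06 to 5.19 (1417023_a_at) over the 12 arrays. The 3 Cd36 probe sets had intensities of 0.824 to 96.3 and exceeded the limit in 2 of 36 readings. The brightest, 1450884_at, read 5.16, 4.09, 5.34 and 5.08 with FoxD3, 6.19, 4.52, 5.18 and 5.51 with FoxD3-VP16, and 5.46, 4.63, 5.42 and 5.01 with the empty vector. The other 2 read 4.12 to 5.62 (1450883_a_at) and 4.08 to 5.49 (1423166_at) over the 12 arrays. Detection calls were not used here, so dim does not mean that the transcript was missing. When no probe set was left out as dim, the changes of the 7 dim probe sets ran from -0.69 to 0.46 with FoxD3 and from -0.42 to 0.38 with FoxD3-VP16, both against the empty vector, and from -0.74 to 0.43 between FoxD3-VP16 and FoxD3. The lowest adjusted p among them was 0.903 for FoxD3-VP16 against the empty vector and 0.224 for FoxD3-VP16 against FoxD3.

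The comparison of FoxD3-VP16 with the empty vector called no member higher or lower. The test was limma over all 27022 tested probe sets, of which 0.229% were called. None of the 8 member probe sets passed (0 of 8, adjusted p = 0.692 to 0.999), 0 of 8 had an unadjusted p under 0.05, and 0 of 8 passed in the blocked fit (adjusted p = 0.190 to 0.929, where 5.25% of all were called). The groups overlapped on all 8 member probe sets, and they did not overlap for 4.83% of all tested probe sets.

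The intervals of this comparison, from the fit without a block, still allow sizeable differences for some members. With the block the SE was smaller, by an amount that differed between probe sets. It was 0.36 against 0.73 for Fabp3 1416023_at, 0.18 against 0.30 for Fabp7 and 0.38 against 0.41 for Slc27a1 1435658_at. For Fabp3 1416023_at the change was -0.35 (95% interval -1.92 to 1.22), with pair differences of -0.78, 0.27, -0.54 and -0.34. Without the FoxD3-VP16 array numbered 1 the change was 0.40. The other Fabp3 probe set gave -0.23 (interval -1.04 to 0.57). For Fabp5 the intervals were narrow, at -0.24 to 0.27 on 1416021_a_at and -0.23 to 0.37 on 1416022_at. Fabp7 had a change of 0.29 (interval -0.35 to 0.93). Slc27a1 had changes of 0.33 (interval -0.37 to 1.02) and -0.29 (interval -1.17 to 0.58) on its 2 probe sets. The second became 0.16 without the 3 arrays numbered 1, on values not quantile normalized.

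Slc27a4 came nearest to a change, at 0.42 (SE 0.21, interval -0.03 to 0.87, adjusted p = 0.692). Its pair differences were 0.90, -0.02, 0.21 and 0.59. With array quality weights it passed (0.45, adjusted p = 0.0380), as did Fabp7 (0.60, adjusted p = 0.0440). Those weights called 4354 of all 27022 tested probe sets, against 62 without them, so nothing particular to the members is read from this. Over all alternatives the adjusted p of Slc27a4 ran from 0.0380 to 0.978 and that of Fabp7 from 0.0440 to 1.00.

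**Figure D2:**
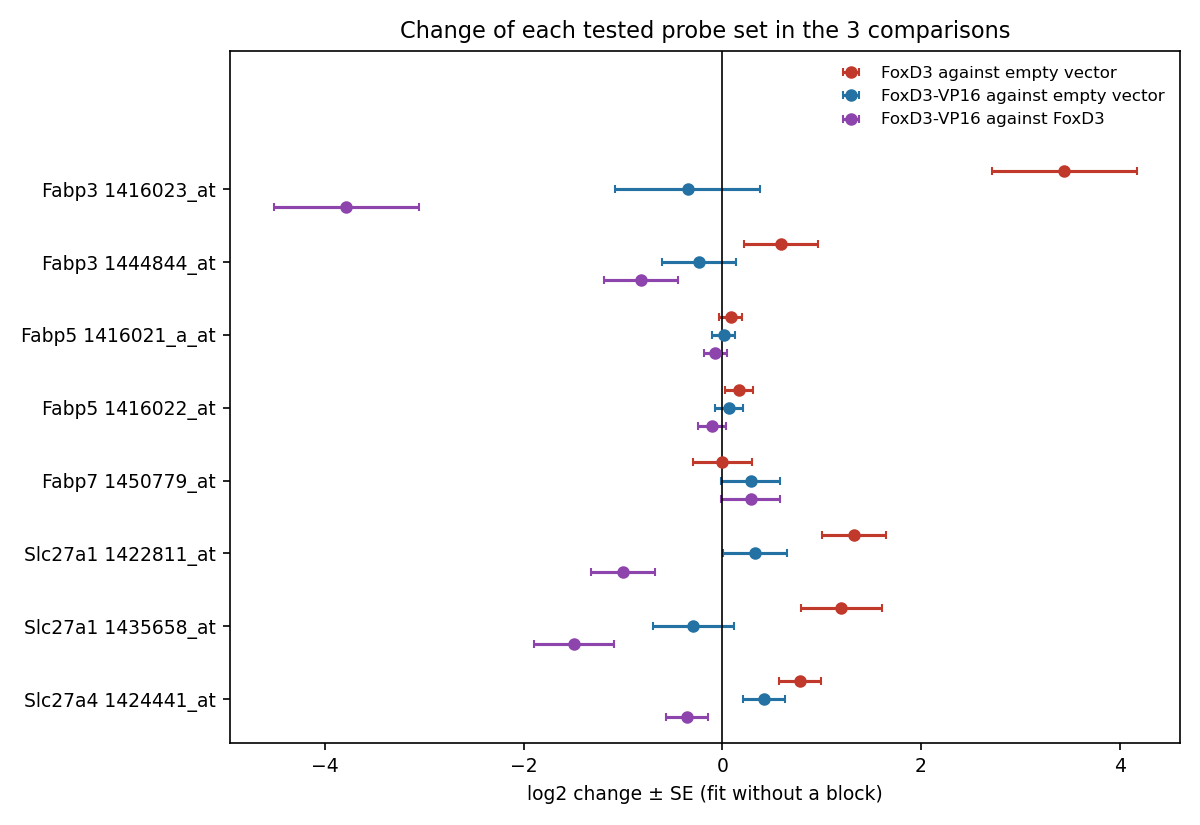
Log2 change of each tested probe set, as the difference of group means with its SE from limma without a block, for FoxD3 against empty vector (red), FoxD3-VP16 against empty vector (blue) and FoxD3-VP16 against FoxD3 (purple). Fabp3 1416023_at has changes of 3.44, -0.35 and -3.79 in that order, and both Fabp5 probe sets lie near 0 in all 3.

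Between FoxD3-VP16 and FoxD3, with the activation domain in place of the repression domain, Fabp3 fell on 1 of its 2 probe sets and Slc27a1 likewise, and the other probe set of each was lower in 4 of 4 pairs without passing in the fit without a block. This comparison uses the same FoxD3 arrays as the one that led to the choice of the genes, so it is no independent evidence on any of the 7. For Fabp3, chosen for its high FoxD3 arrays, the choice alone favoured a fall here. The p-values of the members and their alternative settings in this comparison are given as description. Of the 8 member probe sets, 0 were called higher and 2 lower, where 2.90% and 2.70% of all tested probe sets were called higher and lower. In the blocked fit 3 were lower, where 10.6% of all were.

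Fabp3 1416023_at was 13.8-fold lower with FoxD3-VP16 than with FoxD3 (log2 change -3.79, SE 0.73, adjusted p = 0.00761 by limma). The pair differences were -5.67, -3.09, -3.25 and -3.14, so it was lower in 4 of 4 pairs. Under all 23 alternatives it was called lower (changes of -4.48 to -3.07, adjusted p = 2.27e-06 to 0.0321 by limma). All of these rest on the FoxD3 arrays behind the choice. The other Fabp3 probe set was lower in 4 of 4 pairs and did not pass (-0.82, SE 0.37, adjusted p = 0.268, and 0.0788 with the block).

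Slc27a1 1435658_at fell (log2 change -1.49, SE 0.41, adjusted p = 0.0483), to 6.75 ± 0.38 with FoxD3-VP16 against 8.24 ± 0.79 with FoxD3 (SD, n = 4), and it was lower in 4 of 4 pairs. This call lay close to the threshold. It was lost when any 1 of 10 of the 12 arrays was left out, all but the empty-vector and FoxD3 arrays numbered 1 (highest adjusted p = 0.158, without the FoxD3 array numbered 4), and it held with the block (adjusted p = 0.0125) and without the 3 arrays numbered 1, on values not quantile normalized (-1.85, adjusted p = 0.00132). Over all its alternatives the adjusted p ran from 6.71e-06 to 0.158. Slc27a1 1422811_at had a change of -1.0 (SE 0.32), lower in 4 of 4 pairs. It did not pass without the block (adjusted p = 0.0976) and passed with it (adjusted p = 0.00516), and without the FoxD3-VP16 array numbered 1 it passed as well (-1.26, adjusted p = 0.0347). Over its alternatives the adjusted p ran from 0.000452 to 0.257.

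In 4 of 4 pairs Slc27a4 was lower with FoxD3-VP16, and its arrays did not overlap, although the highest FoxD3-VP16 and the lowest FoxD3 array were equal to 2 decimals (9.46). Its change of -0.36 (SE 0.21) did not pass (adjusted p = 0.427, and 0.169 with the block). Groups that did not overlap, with FoxD3-VP16 lower, were found for 7.20% of all tested probe sets and for 2 of the 8 here. Neither Fabp5 (-0.07, SE 0.12, and -0.10, SE 0.14) nor Fabp7 (0.29, SE 0.30) passed.

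The order of the 3 vectors can be read gene by gene. For Fabp3 1416023_at the order from high to low was FoxD3, empty vector and FoxD3-VP16, the last pair overlapping. For Slc27a1 1422811_at and Slc27a4 it was FoxD3, FoxD3-VP16 and empty vector, again with the last pair overlapping, and on Slc27a1 1422811_at FoxD3 and FoxD3-VP16 overlapped too. On Slc27a1 1435658_at the last 2 stood the other way round and overlapped. Fabp5 and Fabp7 had no neighbours in this order that differed beyond their spread.

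**Figure D3:**
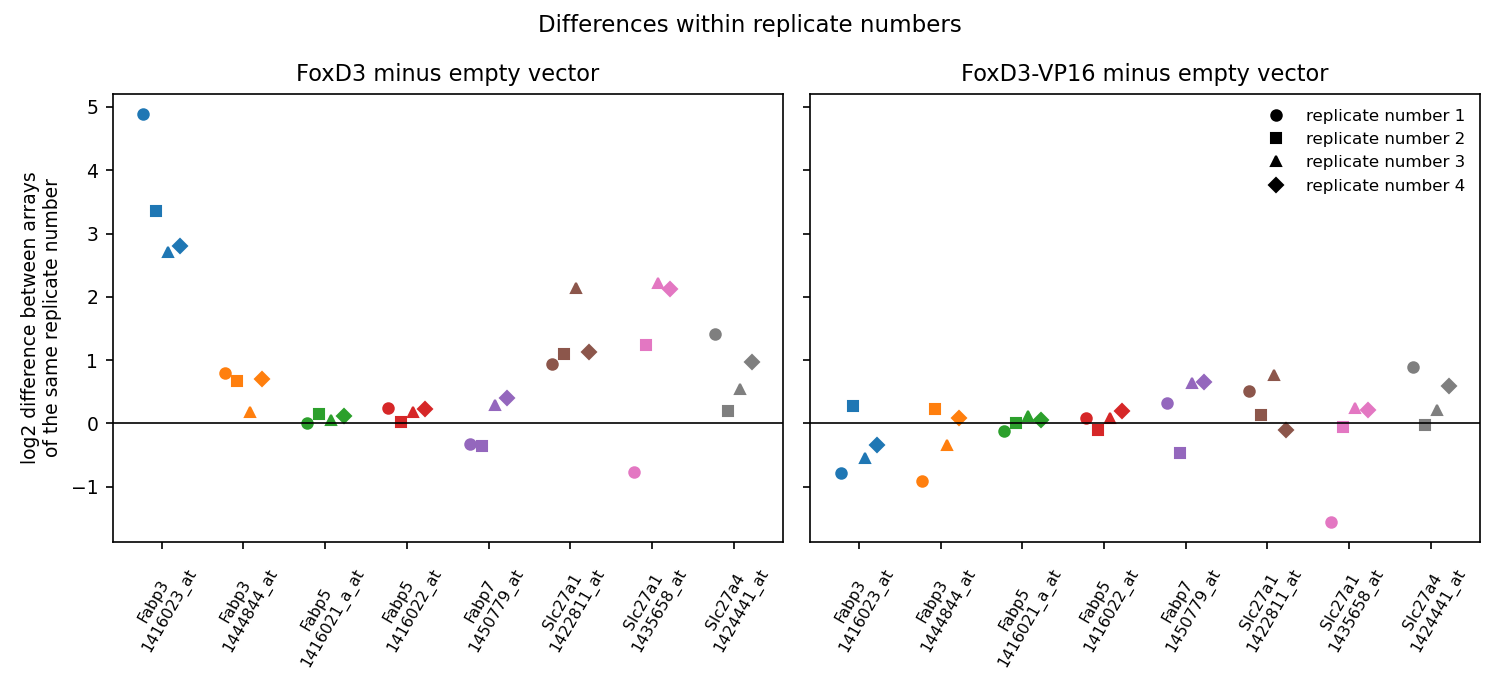
Log2 differences between arrays of the same replicate number for the 8 tested probe sets, FoxD3 minus empty vector on the left and FoxD3-VP16 minus empty vector on the right, with 1 symbol per number. With FoxD3, all 4 differences of Fabp3 1416023_at lie between 2.70 and 4.89, and Slc27a1 1435658_at has 1 negative difference, in the pair numbered 1. With FoxD3-VP16, the differences of all 8 probe sets fall on both sides of 0. Both panels use the same empty-vector arrays.

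The sequences before the gene starts of Fabp3 and Slc27a4 are shown as examples of a window without and a window with a core motif of forkhead factors, to which FoxD3 belongs. Whether FoxD3 binds either window was not tested. They are the 250 bases before the annotated start from RefSeq (GRCm38.p6), 5′ to 3′ on the gene's strand, at chr4:130308488-130308737 (plus strand) for Fabp3 and chr2:29802384-29802633 (plus strand) for Slc27a4. Capitals mark TGTTTA or its reverse complement TAAACA.
Fabp3: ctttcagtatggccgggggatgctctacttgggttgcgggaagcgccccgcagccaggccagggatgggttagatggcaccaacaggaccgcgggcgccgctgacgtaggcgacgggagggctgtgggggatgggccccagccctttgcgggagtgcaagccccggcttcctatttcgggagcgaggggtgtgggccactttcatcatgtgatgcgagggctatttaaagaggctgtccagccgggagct
Slc27a4: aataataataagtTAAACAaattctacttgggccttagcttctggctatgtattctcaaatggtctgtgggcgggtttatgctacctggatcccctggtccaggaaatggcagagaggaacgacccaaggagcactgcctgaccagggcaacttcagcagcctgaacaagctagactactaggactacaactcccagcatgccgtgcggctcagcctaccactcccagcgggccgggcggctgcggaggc

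In Slc27a4 the match began 237 bases before the gene start. RefSeq windows were matched by symbol for Fabp3, Fabp7, Cd36, Slc27a4 and Slc27a1, the last with 3 starts, 7 windows in all, and the motif was in 1 of them, where 3952 of all 32851 windows of this length held it on either strand. No match says only that these letters are not in this window. The Fabp3 window was 64.8% G and C and the Slc27a4 window 54.4%, where the median window had 52.4%.

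Some of the family lie side by side. In the RefSeq gene order, Fabp5, Pmp2, Fabp9, Fabp4 and Fabp12 follow each other on chromosome 3 with no other protein-coding gene between them. Of this cluster Fabp5 was bright, and the probe sets of Pmp2, Fabp9, Fabp4 and Fabp12 were all dim on average. Fabp3 and Fabp7 lie on chromosomes 4 and 10. The other binding proteins Fabp1, Fabp2 and Fabp6 were dim as well.

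Genes with a pattern most like each member were found from Pearson's r over the 12 arrays, after each value was centred on the mean of its replicate number. The 12 points share the vectors and the normalization, so a high r says only that 2 profiles have the same shape over these arrays. Fabp3 was most like Uap1l1 (r = 0.993), the stress-induced Gadd45b (0.993) and a probe set of the chaperone gene Hsp90aa1 (0.988). Those genes had changes of 1.18, 3.20 and 0.37 with FoxD3 and of -0.08, -0.15 and -0.03 with FoxD3-VP16, both against the empty vector. Slc27a1 was most like the forkhead gene Foxo1 (0.970), the coregulator Zmiz1 (0.970) and the neurotrophin gene Ntf5 (0.969). For Slc27a4 the nearest were Eif1ad (0.974), the glycine transporter Slc6a9 (0.973) and the thyroid hormone receptor Thra (0.972), for Fabp5 they were Dcakd (0.972), the cartilage collagen Col9a3 (0.959) and Ywhaz (0.954), and for Fabp7 Apeh (0.961), Armcx2 (0.955) and Erlin2 (0.926). Between members, r was 0.90 for the 2 Fabp3 probe sets, 0.77 for the 2 of Slc27a1 and 0.50 for the 2 of Fabp5. The highest r between different members was 0.89, for Fabp5 1416022_at with Slc27a4. For Fabp3 1416023_at, r was 0.78 with Slc27a1 1422811_at, 0.69 with Slc27a4 and -0.45 with Fabp7.

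The wider pathway was read from 7 lists of lipid genes, chosen with earlier results of these data known. They had 102 distinct genes tested, by the brightest probe set of each gene. In FoxD3 against empty vector 4 of the 102 rose and 0 fell, in FoxD3-VP16 against empty vector 0 rose and 0 fell (12 with an unadjusted p under 0.05), and in FoxD3-VP16 against FoxD3 5 rose and 6 fell. With the block the counts were 15 and 3, 10 and 0, and 24 and 20. Over all tested probe sets, 1.36% were called higher and 0.496% lower with FoxD3 against empty vector (6.54% and 5.11% with the block), 0.229% in either direction with FoxD3-VP16 against empty vector (3.06% higher and 2.19% lower with the block, 7.78% with an unadjusted p under 0.05), and 2.90% higher and 2.70% lower with FoxD3-VP16 against FoxD3 (10.1% and 10.6% with the block). The counts of each list below stand against these same shares, and nothing particular to a list is read from them. Medians over the 102 were 0.09, 0.19 and 0.06, where those over all tested probe sets were -0.02, -0.02 and -0.00.

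Among other cytosolic lipid binding proteins 5 were tested, and with FoxD3 1 rose and 0 fell (median 0.18). The riser was Crabp2, a carrier of retinoic acid from the same protein family as the Fabp genes. It rose to 9.48 ± 0.10 with FoxD3, against 6.67 ± 0.46 with the empty vector (SD, n = 4, log2 change 2.81, SE 0.36, adjusted p = 0.00141), and the arrays did not overlap. Between FoxD3-VP16 and FoxD3 it fell (-2.90, SE 0.36, adjusted p = 0.000458), and Stard4, a cholesterol transfer protein, was higher (0.81, SE 0.20, adjusted p = 0.0290).

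Of 8 lipoprotein lipase and lipid receptor genes, 2 rose with FoxD3 and 0 fell (median 0.43, and 4 rose with the block). These were Lrp1, a large endocytic receptor of the LDL receptor family (1.56, SE 0.34, adjusted p = 0.0353), and Mfsd2a, a membrane transporter of lysolipids that carry long-chain fatty acids (1.24, SE 0.27, adjusted p = 0.0357). Between FoxD3-VP16 and FoxD3, Mfsd2a fell (-1.31, adjusted p = 0.0122) and so did the apolipoprotein E receptor gene Lrp8 (-1.17, adjusted p = 0.0389).

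Among 14 other fatty acid transport proteins, acyl-CoA synthetases and thioesterases, 0 rose and 0 fell with FoxD3 (median -0.07), and with the block 0 rose and 2 fell. With FoxD3-VP16 against FoxD3, 1 rose (6 with the block). It was Acot1, a cytosolic acyl-CoA thioesterase, whose groups overlapped and which was named after its value was seen (1.23, SE 0.33, adjusted p = 0.0429). In the list of triglyceride synthesis, lipid droplets and lipolysis, 1 of 20 rose with FoxD3 and 0 fell (median 0.16, and 4 rose with the block). The riser was Gpat3, an acyltransferase of the first step of triglyceride synthesis (1.79, SE 0.38, adjusted p = 0.0281). Fitm2, an endoplasmic reticulum protein of lipid droplet formation, fell with FoxD3-VP16 against FoxD3 (-1.06, SE 0.21, adjusted p = 0.00896), where 0 of the 20 rose and 1 fell (3 and 7 with the block).

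PPAR and RXR receptors are the nuclear partners to which binding proteins can deliver fatty acids. Of 12 tested genes of this list, 0 rose and 0 fell with FoxD3 (median 0.22, and 2 and 1 with the block). With FoxD3-VP16 against FoxD3, 2 rose and 1 fell. The coactivator Ppargc1a was higher, at 10.83 ± 0.37 with FoxD3-VP16 and 9.43 ± 0.63 with FoxD3 (SD, n = 4, change 1.40, adjusted p = 0.0476), and its relative Ppargc1b was lower, at 8.15 ± 0.30 with FoxD3-VP16 and 9.44 ± 0.28 with FoxD3 (-1.28, adjusted p = 0.00229). The third was the oxidation enzyme Acadm. The 2 coactivators thus moved in opposite directions between the same arrays.

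**Figure D4:**
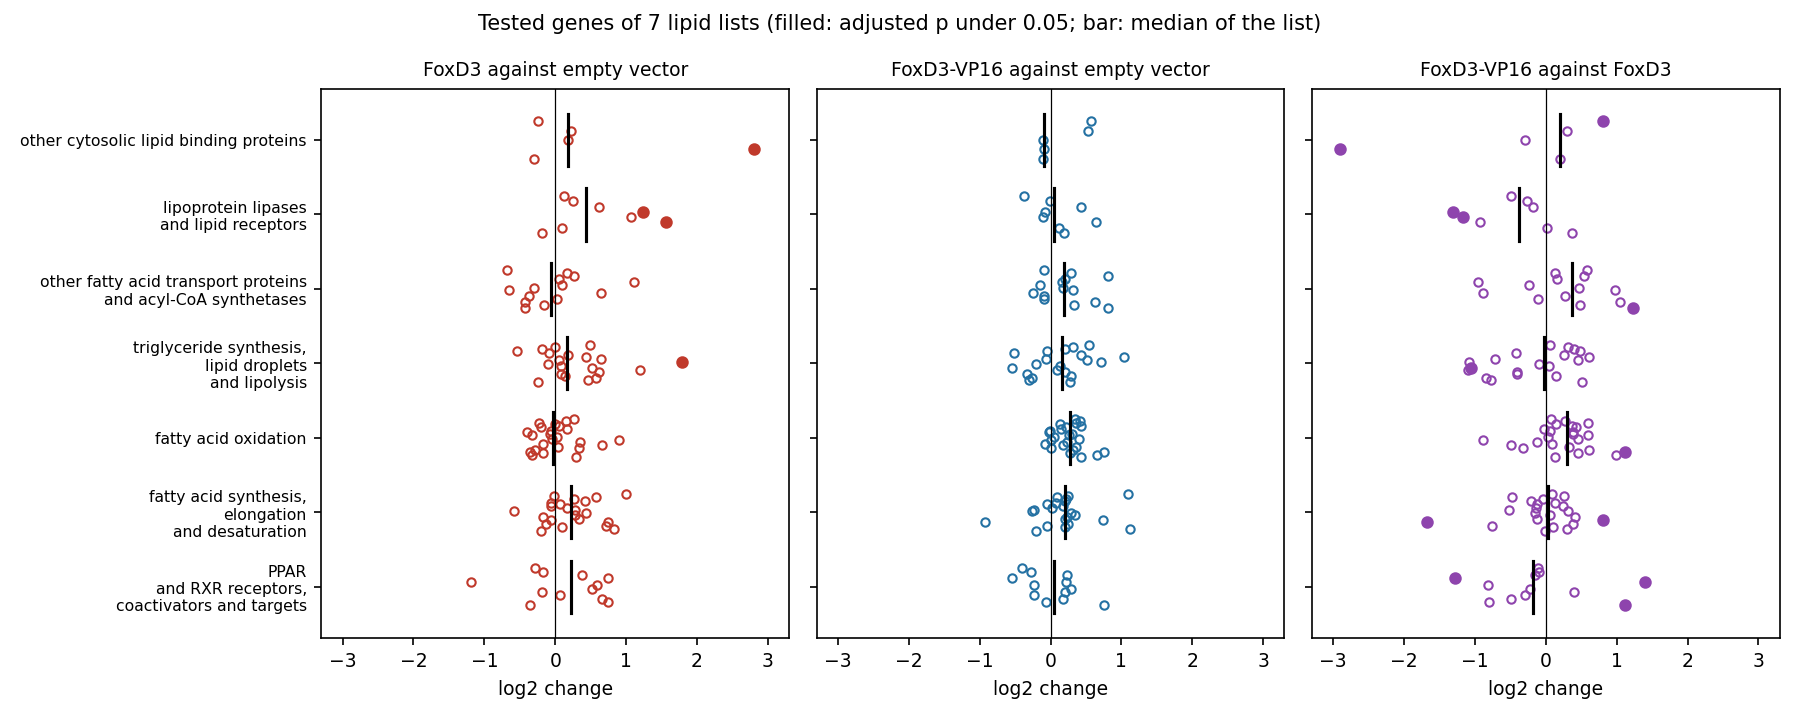
Log2 change of each tested gene of the 7 lipid lists in the 3 comparisons, 1 point per gene in each list, with filled points for an adjusted p under 0.05 (limma without a block) and a bar at the list's median. FoxD3 against empty vector has 4 filled genes, all higher. FoxD3-VP16 against empty vector has none.

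Markers of other cell types were read beside these values. The macrophage and leukocyte markers on the array had 4 of 10 members above the limit and sums of 217 to 387 with FoxD3, 324 to 758 with FoxD3-VP16 and 259 to 384 with the empty vector. The endothelial markers had 2 of 8 above the limit and sums of 224 to 269, 80 to 227 and 243 to 408 in the same order, with the defining Pecam1 and Cdh5 dim. The Schwann cell and radial glia markers, of the cells in which Fabp7 is best known, had 6 of 8 above the limit, with Slc1a3 and Sox2 dim. Their sums were 4385 to 10331, 7979 to 16377 and 7912 to 21109 in the same order. Mbp, S100b and Cdh19 had log2 means over all arrays of 10.98, 10.64 and 12.35. Gfap, Pou3f1 and Egr2, at 5.79, 5.85 and 5.95, lay only just above the limit. Of the 6 above the limit, 0 rose and 1 fell with FoxD3 against the empty vector, and 1 rose and 1 fell with the block. The faller was Cdh19 (-1.21) and the riser with the block Pou3f1 (2.15). Over all tested probe sets, 1.36% were called higher and 0.496% lower (6.54% and 5.11% with the block). The part of other cell types in the changes of Fabp3, Slc27a1 and Slc27a4 was not tested.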

How the data were processed

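Probe set intensities deposited by the authors, linear values made with MAS5 per the submitters' processing notes (version not given in the sources used here), were used for 12 arrays. On every array the mean without the lowest and highest 2% was 500.003 to 500.004. Log2(intensity + 16) was computed, the 64 control probe sets were left out, and quantile normalization was applied because array medians spanned 0.79, over the limit of 0.5. Without the arrays numbered 1 the medians spanned less than 0.5, so quantile normalization was not applied in those settings. The lowest 40% of 45037 probe sets by mean (below 5.60) were left out, leaving 27022. Gene symbols came from the platform annotation.

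Vectors were compared with limma 3.58.1 in R 4.3.3 (eBayes with trend, no block, 9 residual and 4.48 prior degrees of freedom), with Benjamini-Hochberg adjustment over all tested probe sets. Arrays with the same replicate number deviated together (r = 0.33 to 0.58 in 12 of 12 pairs), so the numbers were taken to pair the samples. Arrays numbered 3 deviated together with those numbered 4 as well (0.31 to 0.41 in 6 pairs), and the other 30 pairs ran from -0.44 to 0.14. The pairs numbered 3 and 4 may thus not be independent, so 4 of 4 pairs may not stand for 4 separate results. No label explains the numbers. A fit with the number as a block stands beside results whose call it changes. The fitting code was tested on simulated data.

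The members and the 13 gene lists were chosen with earlier results of these data known. All 15 member probe sets are given, the dimmest by their range, and from each lipid list up to 2 called risers and 2 called fallers whose groups did not overlap. Acot1, whose groups overlapped, is named outside this rule. Plots used matplotlib 3.10.9. The number of arrays limits the precision.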

Additional observations from a re-analysis of the deposited data

Results flagged for a closer look

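In each group of 4 arrays of each of the 15 probe sets (45 groups), the highest and the lowest array were compared with the rest by Dixon's ratio of gap to range, which marks about 1 group in 20 by chance. It marked 3 groups. The FoxD3 array numbered 1 of Slc27a1 1435658_at stood at 7.06, where the nearest other array was at 8.49 and the highest at 8.73. For Fabp5 1416022_at, the array numbered 2 was the highest of its group with FoxD3 (13.26, the next at 13.00) and with the empty vector (13.23, the next at 12.82).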

How the results depend on the processing

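The number of probe sets called over all genes changed most with array quality weights and next with the replicate block, with or without the arrays numbered 1. The count was 3148 with the replicate block for FoxD3 against empty vector (502 without it), 1418 for FoxD3-VP16 against empty vector (62) and 5574 for FoxD3-VP16 against FoxD3 (1513). With array quality weights the counts were 5562, 4354 and 7259, without the 3 arrays numbered 1 they were 1082, 266 and 2946, and with the block added to that, a setting chosen after seeing the data, 2914, 1898 and 5698. Both settings without the arrays numbered 1 also lacked quantile normalization. The share called higher was 73.3% for FoxD3 and 91.9% for FoxD3-VP16, both against empty vector, and 56.1% and 58.3% with the block. With only the 2 groups compared in the fit, 24 were called for FoxD3-VP16 against empty vector. Leaving out 1 array at a time gave 196 to 701, 8 to 85 and 782 to 1723. The causes were not tested.

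Member probe sets called in FoxD3 against empty vector (1 of 8) numbered 3 with the block, 0 with a pseudocount of 1, 2 with a pseudocount of 64, 2 with the lowest 60% left out, 2 with the values as deposited, 2 with one probe set per gene, 4 with array quality weights, 3 without the arrays numbered 1, 4 when the block was added to that, and 0 to 2 with 1 array left out. Over all probe sets, FoxD3 against empty vector had 502 called in the main fit and 196 to 5562 over the alternatives, most with array quality weights. That contrast led to the choice of the genes, so nothing is read from its member counts. In FoxD3-VP16 against empty vector (0 of 8) array quality weights gave 2, where 4354 of all tested probe sets were called, and 1 array left out gave 0 throughout. In FoxD3-VP16 against FoxD3 (2 of 8) there were 3 with the block, with array quality weights, and without the arrays numbered 1 with or without the block, which is within 1.5 times, and 1 with a pseudocount of 1, with no filter, with one probe set per gene and with only the 2 groups compared, and 1 to 2 with 1 array left out. Over all probe sets, 782 to 7259 were called in that comparison over the alternatives.

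Fabp7 with FoxD3 against empty vector, at -0.001, lay on both sides of 0 (-0.195 to 0.31). The other changes of direction were in uncalled changes of FoxD3-VP16 against empty vector: Fabp3 1444844_at with array quality weights (0.071), Slc27a1 1435658_at with those weights (0.17) and without the arrays numbered 1 with or without the block (0.16), and Fabp5 1416021_a_at with the values as deposited (-0.068) and without the arrays numbered 1 with or without the block (-0.017). Settings without the arrays numbered 1 also had no quantile normalization. With it, the pairs numbered 2 to 4 differed by 0.01, 0.11 and 0.05 for this Fabp5 probe set. For Slc27a1 1435658_at those pairs differed by -0.06, 0.24 and 0.21. With 1 array left out, Fabp3 1416023_at ran from -0.96 to 0.40 and Fabp5 1416021_a_at from -0.033 to 0.091.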

Other observations

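Fatty acid oxidation and synthesis, the fates of the fatty acids that these proteins carry, were also read from their lists. Of 24 tested oxidation genes, 0 rose and 0 fell by limma with FoxD3 or with FoxD3-VP16 against the empty vector. With the replicate number as a block 2 rose with FoxD3 and 5 with FoxD3-VP16, and 0 fell. The changes were above 0 for 11 of the 24 with FoxD3 (median -0.03) and for 21 with FoxD3-VP16 (median 0.27), against the same empty-vector arrays. Over all 102 lipid genes they were above 0 for 63 with FoxD3 (median 0.09) and for 67 with FoxD3-VP16 (median 0.19). In the synthesis list 16 of 22 were above 0 with FoxD3-VP16 (median 0.20), so oxidation was not alone in leaning upward. Other lists leaned less or not at all. They had 9 of 14 (transport proteins and synthetases), 12 of 20 (triglycerides), 6 of 12 (PPAR), 4 of 8 (lipid receptors) and 2 of 5 (lipid binding) above 0. The median over all tested probe sets was -0.02. Between FoxD3-VP16 and FoxD3, 1 oxidation gene rose and 0 fell (9 and 3 with the block). The called gene without the block was Acadm, the medium-chain acyl-CoA dehydrogenase, at 12.59 ± 0.23 with FoxD3-VP16 and 11.48 ± 0.10 with FoxD3 (SD, n = 4, log2 change 1.11, SE 0.15, adjusted p = 0.00095).

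Of 22 tested genes of fatty acid synthesis, elongation and desaturation, 0 rose and 0 fell by limma against the empty vector with either insert (3 and 1 rose with the block). Between FoxD3-VP16 and FoxD3, 1 rose and 1 fell (3 and 4 with the block). The elongase Elovl5, which acts on polyunsaturated fatty acids, was higher (0.80, SE 0.18, adjusted p = 0.0185), and Elovl4, which makes very long chains, was lower (-1.67, SE 0.40, adjusted p = 0.0261).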
